A study of Silurus asotus with 15 samples.

Results

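The cadherin family was read across 15 tissues of adult Silurus asotus, the Amur catfish, which lives at the bottom of fresh waters. Members were the loci whose protein name in the authors' annotation contains "cadherin", protocadherins included. The rule found 93 loci, and all 93 are among the 25089 genes of the expression table. They comprised 29 cadherins named by number or as E-cadherin, 7 loci named cadherin-like protein 26, 18 non-clustered protocadherins, 13 protocadherins with the alpha, beta or gamma names of the clustered kind, and 11 loci of the Fat and Dachsous kind. The remaining loci were 4 CELSR receptors, 8 cadherin-related and tip link loci and 3 others.

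Paired-end sequencing of poly(A) RNA gave 1 library each for brain, pituitary, gill, both barbel pairs (maxillary and mandibular), skin, heart, muscle, kidney, head kidney, spleen, liver, pancreas, testis and ovary. The labels give an adult stage and a benthic origin, and do not give the number or sex of the fish. Values are FPKM, which scales fragments to gene length and to the mapped fragments of a library, so levels of different genes can be set side by side per length. Since each tissue has a single library, values carry no error, and every call below is a rule of size without a p-value.

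The libraries labelled brain and gill go against their markers and are named by label throughout. All 7 of 7 neuron and glia markers were highest in the library labelled gill, where they summed to 4362 FPKM, against 351 FPKM in pituitary, 1.18 FPKM in the library labelled brain and at most 9.12 FPKM in the others. In pituitary 4 of the 7 reached 1 FPKM, S100-B gave 249 FPKM of the sum, and GRIN1 (0.251 FPKM), myelin basic protein (0.398 FPKM) and neurofilament medium (0.318 FPKM) did not. Of 7 markers of gill ionocytes and epithelium, 5 were highest in the library labelled brain. The list summed to 3025 FPKM there, 3002 FPKM in maxillary barbel, 2213 FPKM in mandibular barbel and 2121 FPKM in skin, against 1.18 FPKM in the library labelled gill, so the sum, to which keratin 4 gave most in barbels and skin, did not set the library labelled brain apart from the surface libraries. The ammonia transporter Rhcg did, with 232 FPKM there and 4.49 FPKM in maxillary barbel, the next library, as did the ionocyte factor foxi3, with 118 FPKM there and 4.30 FPKM in kidney, the next. The lists for pituitary, heart, muscle, liver, pancreas, testis and ovary had all of their 3 or 4 markers highest in the library of that name. For kidney, 3 of 6 nephron markers were highest in that library, and the locus matched for uromodulin, 1 of the other 3, is named uromodulin-like 1. Read counts were not given. The steps between low values, set against the finest of any library, were 6.61 times as large in maxillary barbel, 5.89 times in mandibular barbel and in skin, 4.37 times in muscle and at most 1.12 times in the other 11, so values near 0 were coarser in those 4 libraries.

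Cadherins are transmembrane proteins built from repeated extracellular domains that bind calcium and, in the classical members, hold neighbouring cells together by binding the same cadherin on the next cell. Inside the cell, classical cadherins bind beta-catenin and p120 catenin, which link them to alpha-catenin and actin in adherens junctions. Protocadherins lack that catenin-binding tail and are best known from nerve cells, Fat, Dachsous and CELSR proteins act in planar polarity and tissue growth, and cadherin-23 and protocadherin-15 form the tip links that pull on the ion channels of hair cells. The annotated domains followed these classes. A cadherin repeat motif was annotated in 90 of the 93 loci, and the catenin-binding cytoplasmic domain in 23, of which 21 were among the 29 numbered cadherins and 2 were neural-cadherin loci.

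Members reached 1 FPKM in few libraries per locus. At 1 FPKM or more in any library, 80 of 93 members were detected (86.0%), against 85.2% of all genes. None of the members was detected in all 15 libraries, against 22.6% of all genes, and a detected member reached 1 FPKM in a median of 2 libraries, against 10 for all detected genes. The tau index, which is 0 for an even gene and 1 for a gene of a single library, had a median of 0.873 over detected members and 0.612 over all detected genes. The highest value of a member was 4.10 FPKM at the median, against 11.7 FPKM for all genes, and 4 members reached 50 FPKM anywhere. A lower level leaves fewer libraries above a fixed minimum, and its part in the library counts and in tau was not tested. In all, 31 members were detected in a single library, which was the library labelled gill for 15 of them, pituitary for 4 and the library labelled brain for 3. The same count was not made over all genes, whose highest values were larger at the median, so it is not read as a trait of the family. At the other end, 6 loci were detected in at least 10 libraries: E-cadherin, cadherin-5 and protocadherin 1 gamma 32 in 12 each, protocadherin-1 (C0J50_18349) in 11, and the cadherin-11 loci C0J50_10642 and C0J50_08774 in 10 each.

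**Figure D1:**
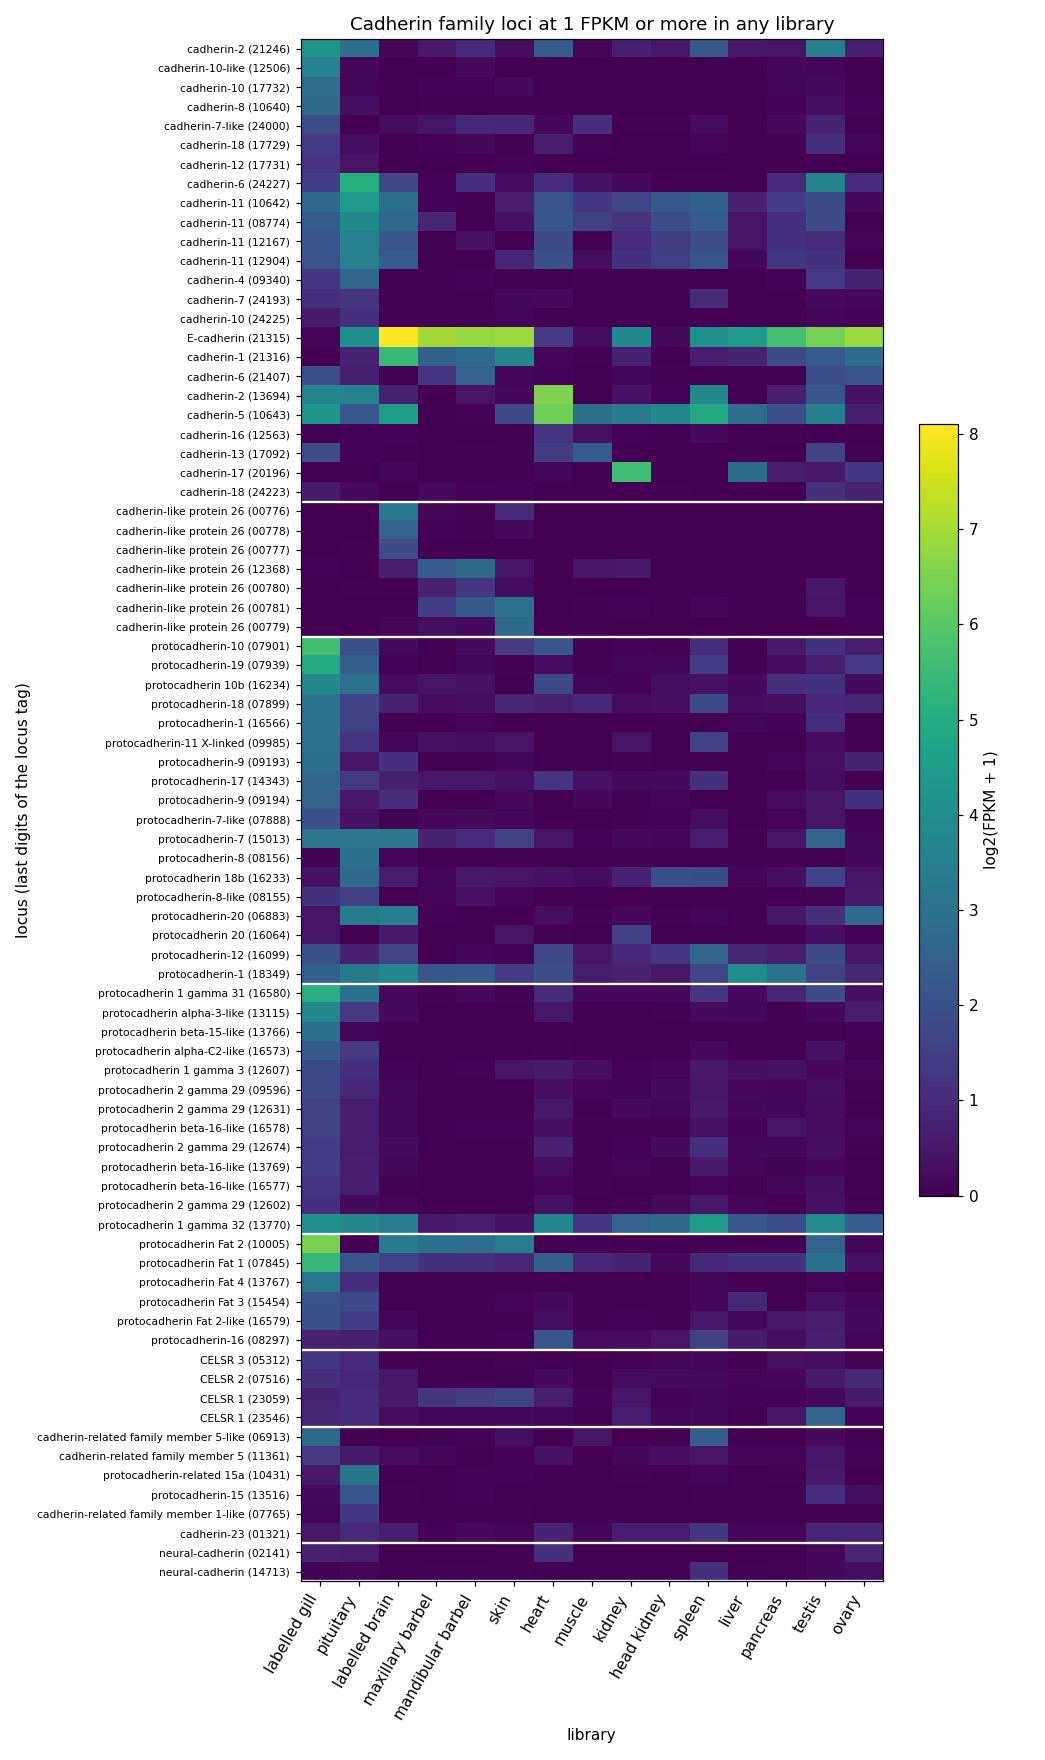
Heat map of log2(FPKM + 1) for the 80 cadherin family loci at 1 FPKM or more in any library (rows, white lines between classes) in 15 libraries (columns, 1 library each). Protocadherin rows are brightest in the library labelled gill and in pituitary, the E-cadherin row is bright from the library labelled brain through skin and in ovary, and most other cells are dark.

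The library labelled gill held the largest number of detected members, 54 (58.1%), close to its share over all genes, 59%. Pituitary had 37 members (39.8%), against 56.1% of all genes, testis had 29 (31.2%), against 63.2%, spleen had 24 (25.8%), against 55.8%, and heart had 21 (22.6%), against 54.5%. The library labelled brain had 20 members (21.5%), against 56.3% of all genes. Mandibular barbel had 12 members (12.9%), against 43.6%, pancreas had 11 (11.8%), against 39.7%, and skin had 10 (10.8%), against 43.8%. Maxillary barbel, kidney and ovary had 9 members each (9.68%), against 43.4%, 52.9% and 47.5% of all genes. Head kidney had 8 (8.6%), against 51.3%, and liver and muscle had 6 each (6.45%), against 41.3% and 39.2%. The share of members was thus below that of all genes in all 15 libraries, and close to it only in the one labelled gill. In bulk tissue, fewer cells of a type and less RNA per cell cannot be told apart.

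The highest library of a member was most often the one labelled gill. Of the 80 detected members, 38 peaked there (47.5%), against 17% of all detected genes, and 15 peaked in pituitary (18.8%), against 3.98%. The 15 included the 4 cadherin-11 loci, and the 38 included 4 loci named protocadherin 2 gamma 29 and 2 named protocadherin-9. Whether such loci are pieces of fewer genes was not tested, so these shares count annotated loci and may not count separate genes. The library labelled brain was highest for 6 members (7.5%), against 8.45% of all genes, and testis for 2 (2.5%), against 10%. Heart was highest for 5 members (6.25%), against 4.08%, and spleen for 4 (5.0%), against 8.05%. Mandibular barbel and skin were highest for 3 each (3.75%), against 2.42% and 3.73%, kidney for 2 (2.5%), against 2.02%, and muscle and liver for 1 each (1.25%), against 4.07% and 4.14%. Ovary, head kidney, maxillary barbel and pancreas were highest for 0 members, against 23.5%, 5.56%, 1.67% and 1.31% of all genes. Of the 38 members highest in the library labelled gill, 22 had pituitary as the next library, 5 had spleen and 5 had testis. The next library was not counted over all genes highest there, so this order is not read as a trait of the family. Neuron and glia markers were highest in the library labelled gill, and 4 of the 7 were also detected in pituitary; their part in these counts was not tested. With the libraries labelled brain and gill left out, an alternative chosen after seeing the data, pituitary was highest for 27 of 61 detected members (44.3%), against 8.76% of all genes.

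**Figure D2:**
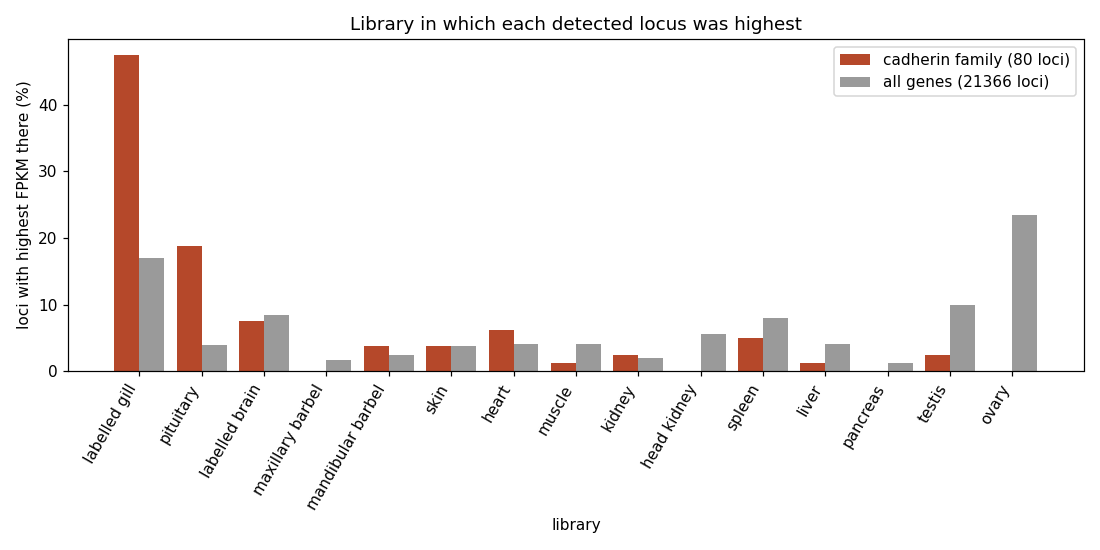
Share of detected loci with their highest FPKM in each library, for the 80 detected cadherin family members and for all 21366 detected genes (bars, percent). Members exceed all genes in the library labelled gill (47.5% against 17%) and in pituitary (18.8% against 3.98%), and have no bar in ovary, where all genes have 23.5%.

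A member was called tissue-enriched when its highest library reached 5 FPKM and stood at least 5-fold above the next on the log2(FPKM + 1) scale, which understates the fold of low genes. By this rule 14 of 93 members were enriched (15.1%), against 9.38% of all genes. The comparison with all genes depended on the rule: with a minimum of 10 FPKM the shares were 8.6% of members and 8.57% of all genes, with a 10-fold gap 2.15% and 4.73%, and leaving out the libraries that go against their labels gave 5.38% and 7.78%. The library labelled gill had 9 of the 14 (9.68%), against 2.42% of all genes, pituitary had 2, against 0.359%, and skin, heart and kidney had 1 each, against 0.0837%, 0.411% and 0.108%. The other libraries had 0, the one labelled brain among them, against 0.598% of all genes. None of the members was group-enriched, a rule that asked the same 5-fold gap of a whole group of libraries. All genes had 0.391% for the library labelled gill with pituitary, 0.287% for heart with muscle, 0.191% for ovary with testis, 0.0199% for kidney with head kidney, 0.155% for both barbels with skin and 0.223% for these with the library labelled brain.

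E-cadherin (C0J50_21315, the cadherin of epithelial adherens junctions; scaffold178239, 907822 to 915021, minus strand, 15 coding exons) had the highest values of the family. Its level was 263 FPKM in the library labelled brain, 129 FPKM in maxillary barbel, 112 FPKM in mandibular barbel, 117 FPKM in skin and 117 FPKM in ovary. It was 84.4 FPKM in testis, 50.8 FPKM in pancreas, 19.4 FPKM in liver, 15.6 FPKM in spleen, 15.4 FPKM in pituitary and 12.3 FPKM in kidney. The remaining libraries were low, with 1.57 FPKM in heart, 0.202 FPKM in muscle, 0.150 FPKM in head kidney and 0.0726 FPKM in the library labelled gill. The high end thus held the surface epithelia, the library labelled brain and both gonads, and the low end held the library labelled gill, head kidney and muscle. The order at the top depended on scaling: with FPKM rescaled by median ratios, skin and not the library labelled brain was highest.

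A second locus, cadherin-1 (C0J50_21316, 23 coding exons), lies next to E-cadherin on the same strand, at 927340 to 957227, with SNAI3, a zinc finger factor of the snail family, on the other side. Cadherin-1 is another name of E-cadherin, so the pair shares a name. Cadherin-1 was at 42.6 FPKM in the library labelled brain, 12.8 FPKM in skin, 6.33 FPKM in ovary, 6.17 FPKM in mandibular barbel, 4.68 FPKM in maxillary barbel and 3.96 FPKM in testis. It was lower than E-cadherin in all 15 libraries and high in broadly the same ones. In pancreas it was at 2.69 FPKM, and in the other 8 libraries it stayed below 1 FPKM.

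Cadherin-17 (C0J50_20196, known in mammals as liver-intestine cadherin, on scaffold178219, 1316052 to 1326996, plus strand, 16 coding exons) was highest in kidney. It had 47.8 FPKM in kidney and 6.23 FPKM in liver. It had 1.51 FPKM in ovary, 0.542 FPKM in pancreas and 0.479 FPKM in testis, at most 0.0978 FPKM in the other 10 libraries, and was listed at 0 in maxillary barbel, skin and muscle. The gap from kidney to liver was 2.76 on the log2(FPKM + 1) scale, and 1.39 with FPKM rescaled by median ratios, where the locus was no longer called tissue-enriched. Head kidney had 0.0071 FPKM. The nephron markers summed to 195 FPKM in kidney and 0.868 FPKM in head kidney, but to 784 FPKM in liver. Inositol oxygenase gave nearly all of the liver sum and 93.7 FPKM of the kidney sum. The transporters slc13a1 and slc26a1 had 43.7 and 55.1 FPKM in kidney, and podocin, nephrin and uromodulin-like 1 at most 1.64 FPKM there. A locus named uromodulin itself was not read. The part of these markers in the cadherin-17 contrast was not tested. The other member highest in kidney, protocadherin 20 (C0J50_16064), had 1.90 FPKM there and was detected in no other library. Its next value was 0.490 FPKM, in the library labelled brain.

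Cadherin-5 (C0J50_10643, VE-cadherin, the adherens junction cadherin of blood vessel lining) was broad. It reached 80.5 FPKM in heart, 29.2 FPKM in spleen, 22.4 FPKM in the library labelled brain, 18.3 FPKM in the library labelled gill, 13.5 FPKM in head kidney and 10.3 FPKM in testis. Kidney had 9.05 FPKM, muscle 6.96 FPKM, liver 6.42 FPKM, pituitary 3.56 FPKM, pancreas 2.93 FPKM and skin 2.61 FPKM. Ovary had 0.655 FPKM, mandibular barbel 0.0522 FPKM, and maxillary barbel was listed at 0. A list of 5 other endothelial markers (von Willebrand factor, tie1, tie2, kdr and egfl7) summed to 144 FPKM in heart, 60.2 FPKM in spleen, 37.2 FPKM in the library labelled brain, 27.2 FPKM in head kidney and 20.9 FPKM in the library labelled gill. Von Willebrand factor gave 105 FPKM of the sum in heart, 8.49 FPKM of that in spleen and 31.7 FPKM of that in the library labelled brain. Tie1 and kdr were also highest in heart, but tie2 and egfl7 were highest in spleen, at 14.9 and 5.52 FPKM, against 1.47 and 1.26 FPKM in heart. The lead of heart over spleen in the sum thus rested on von Willebrand factor. The receptor kdr had 26.2 FPKM in heart, 23.4 FPKM in spleen, 16.1 FPKM in the library labelled gill, 12.9 FPKM in head kidney and 8.13 FPKM in kidney, but 3.39 FPKM in the library labelled brain, so the place of that library among the highest rested on von Willebrand factor. The list was lowest in maxillary barbel, at 1.69 FPKM, where cadherin-5 was listed at 0.

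Cadherin-2 (N-cadherin, the classical cadherin of nerve and heart muscle) had 2 loci with different leading libraries. C0J50_13694 was tissue-enriched in heart, with 92.0 FPKM there, 13.4 FPKM in spleen, 12.2 FPKM in the library labelled gill and 11.2 FPKM in pituitary. It had 3.39 FPKM in testis, less than 1 FPKM in 9 further libraries, and was listed at 0 in maxillary barbel. C0J50_21246 had 17.1 FPKM in the library labelled gill, 10.1 FPKM in testis, 6.71 FPKM in pituitary, 4.13 FPKM in heart and 3.82 FPKM in spleen, and less than 1 FPKM in the other 10. Heart thus led for the first locus and came after the library labelled gill, testis and pituitary for the second. The neighbourhoods are alike: each locus is preceded by KCTD1 and aquaporin-4 on the same strand, and desmosomal cadherins lie beyond its other side, desmoglein-2 for the first and desmocollin-1 and desmoglein-2 for the second.

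**Figure D3:**
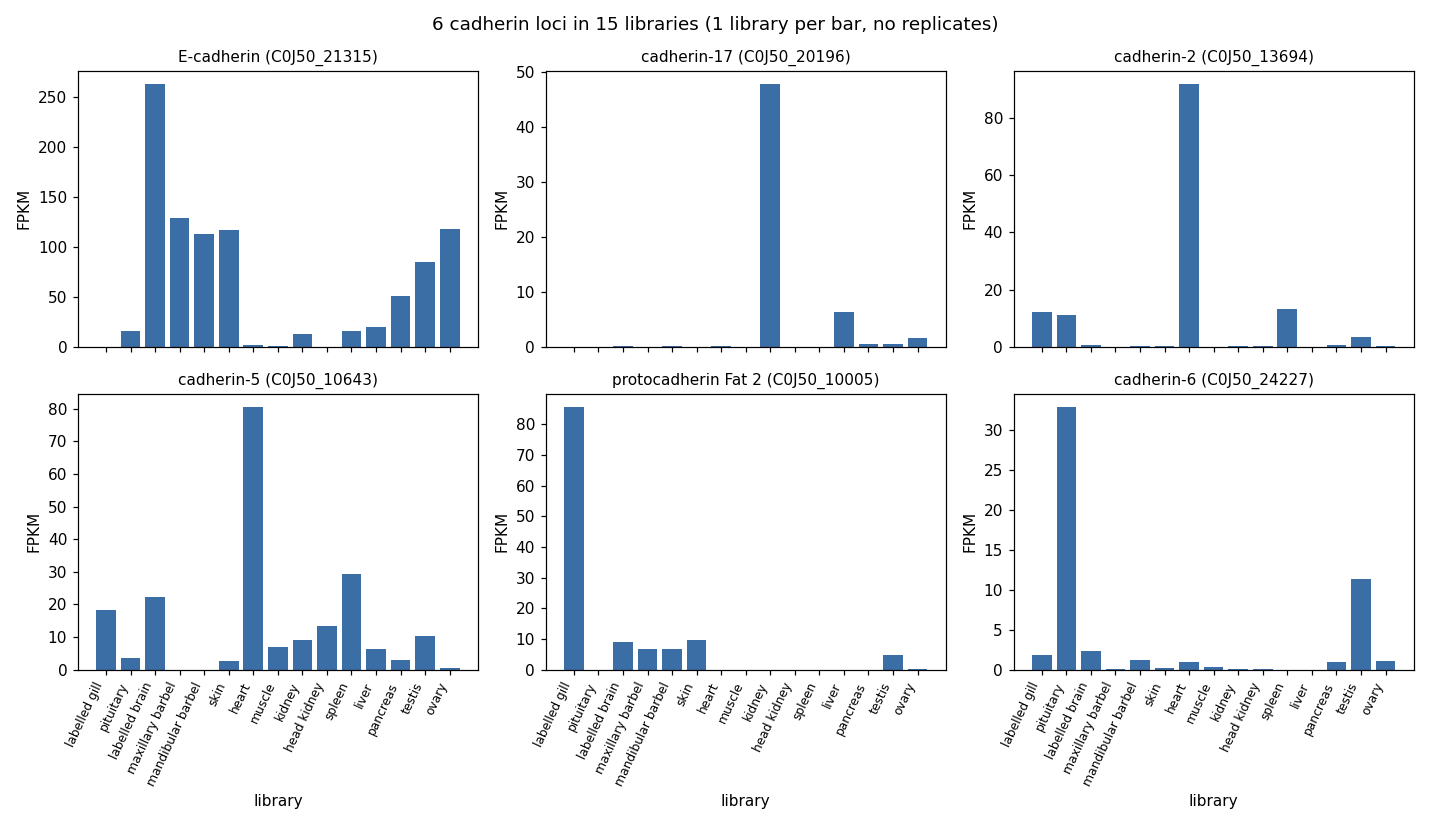
FPKM (vertical axes, linear, each panel on its own scale) of E-cadherin, cadherin-17, cadherin-2 (C0J50_13694), cadherin-5, protocadherin Fat 2 and cadherin-6 (C0J50_24227) in 15 libraries, 1 library per bar. Single bars stand out for cadherin-17 in kidney (47.8), cadherin-2 in heart (92.0), Fat 2 in the library labelled gill (85.6) and cadherin-6 in pituitary (32.9), while E-cadherin and cadherin-5 have several tall bars.

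Cadherin-8 stood at 6.04 FPKM in the library labelled gill and 0.260 FPKM in pituitary, the next library. Cadherin-10 (C0J50_17732) stood at 6.48 FPKM in the library labelled gill and 0.146 FPKM in testis, the next. Cadherin-8 and cadherin-10, adhesion molecules of brain circuits in mammals, were both tissue-enriched there. Another enriched locus, cadherin-10-like (C0J50_12506), had 11.1 FPKM, but it is a single exon of 300 coding bases on a scaffold with no other member. Whether it shares reads with a longer cadherin-10 locus was not tested, so its value is uncertain.

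Pituitary led for cadherin-6 (C0J50_24227), with 32.9 FPKM there, 11.3 FPKM in testis and 2.30 FPKM or less elsewhere. Cadherin-6 in mammals is known from kidney, nerve and placenta, but neither of the 2 catfish loci reached 0.15 FPKM in kidney. The other locus, C0J50_21407, was highest in mandibular barbel, at 4.83 FPKM, followed by ovary at 3.24 FPKM, the library labelled gill at 2.93 FPKM and testis at 2.84 FPKM. Cadherin-4, retinal cadherin, was highest in pituitary for the detected locus (C0J50_09340), at 5.38 FPKM, with 1.54 FPKM in testis and 1.45 FPKM in the library labelled gill.

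Cadherin-11, the cadherin of bone-forming and other mesenchymal cells, was annotated at 4 loci with coding lengths of 990, 528, 117 and 360 bases, of which the last 3 lie on 3 other scaffolds, each with no other member. All 4 were highest in pituitary, at 19.7, 13.5, 10.9 and 10.6 FPKM. The first 2 were next highest in the library labelled brain, at 6.69 and 5.74 FPKM. Heart had 2.46 to 3.48 FPKM over the 4 loci, and both barbels had at most 0.802 FPKM. The 4 loci thus had alike profiles. Whether they are pieces of fewer genes was not tested, and the files do not say how reads were divided among them.

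Other numbered cadherins were lower. Cadherin-13, a cadherin held on the membrane by a lipid anchor, was highest in muscle, at 4.10 FPKM, with 2.74 FPKM in the library labelled gill, 1.96 FPKM in testis and 1.66 FPKM in heart, and no other library above 0.05 FPKM. Cadherin-16, known in mammals as kidney-specific cadherin, is here a fragment of 444 coding bases with 1.34 FPKM in heart and 0.0475 FPKM in kidney. Cadherin-15, known in mammals from muscle precursor cells, reached at most 0.635 FPKM, in head kidney, and had 0.457 FPKM in muscle. The mammalian tissue names of cadherin-16 and cadherin-15 were therefore not matched by a detectable level in the catfish library of that tissue.

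Cadherin-like protein 26 was a skin and surface group. Cadherin-26 is known in mammals from epithelial cells. In all, 6 of the 7 loci lie in a row on the minus strand of scaffold34, from 7338982 to 7530028. The first 3 in that row were highest in the library labelled brain, C0J50_00776 at 8.66 FPKM, C0J50_00777 at 2.68 FPKM and C0J50_00778 at 4.85 FPKM, and reached 0.998, 0 and 0.171 FPKM in skin. The next, C0J50_00779, was tissue-enriched in skin, with 5.76 FPKM there and 0.239 FPKM in maxillary barbel, the next library. C0J50_00780 was highest in mandibular barbel, at 1.42 FPKM, and C0J50_00781 in skin, at 7.27 FPKM, followed by mandibular barbel at 3.89 FPKM and maxillary barbel at 1.83 FPKM.

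The row was thus divided by position, the 3 loci at one end high in the library with gill epithelium markers and the 3 at the other end high in skin or barbel. The seventh locus, C0J50_12368, a model of 324 coding bases on another scaffold, had 5.91 FPKM in mandibular barbel and 4.12 FPKM in maxillary barbel. Outside the library labelled brain, the barbels and skin, no locus of this name exceeded 0.459 FPKM. Neighbouring copies can share reads, and the files do not say how such reads were divided.

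**Figure D4:**
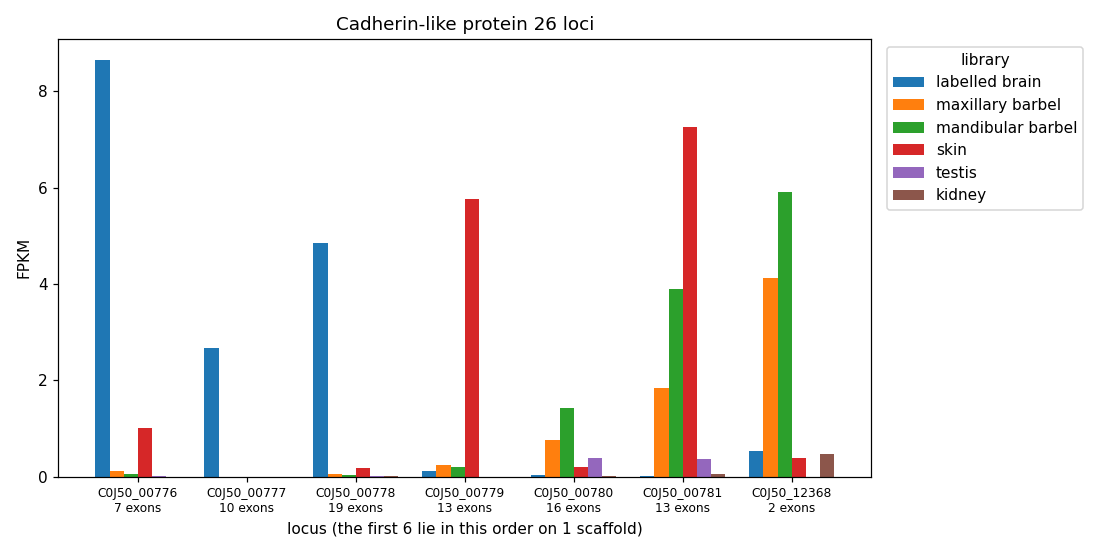
FPKM (vertical axis, linear) of the 7 cadherin-like protein 26 loci in the library labelled brain, both barbels, skin, testis and kidney, 1 library per bar; the first 6 loci are in their order along the scaffold. The first 3 loci have their tall bar in the library labelled brain (8.66, 2.68 and 4.85 FPKM), and the next 3 in skin or mandibular barbel (5.76, 1.42 and 7.27 FPKM).

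Non-clustered protocadherins were all detected, 18 of 18, against 85.2% of all genes. Of these, 10 were highest in the library labelled gill, against 17% of all detected genes, 4 in pituitary, against 3.98%, and 1 each in the library labelled brain, kidney, liver and spleen. Protocadherin-10, a protocadherin of the developing brain, had 49.5 FPKM in the library labelled gill, 3.38 FPKM in heart and 3.07 FPKM in pituitary. Protocadherin-19, whose human gene is mutated in an epilepsy that mainly affects females, stood at 30.4 FPKM in the library labelled gill and 4.47 FPKM in pituitary. Both were tissue-enriched. The paralog protocadherin 10b was highest in the library labelled gill too, at 13.1 FPKM, but with 7.30 FPKM in pituitary it was not.

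Protocadherin-8, known in mammals for its part at synapses, was tissue-enriched in pituitary, at 6.78 FPKM, with 0.121 FPKM in ovary as the next value, and it was listed at 0 in 8 libraries. Its neighbour on the opposite strand, protocadherin-8-like, was highest in pituitary too, at 1.91 FPKM, with 1.15 FPKM in the library labelled gill, and the order turned round when libraries were rescaled to a common sum. Protocadherin-20 (C0J50_06883) had 10.3 FPKM in the library labelled brain, 8.92 FPKM in pituitary and 6.18 FPKM in ovary, and pituitary was highest after rescaling by median ratios. Protocadherin-7 was almost level in pituitary (8.28 FPKM), the library labelled brain (8.21 FPKM) and the library labelled gill (7.99 FPKM), so its highest library cannot be named.

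Protocadherin-1, an adhesion molecule of airway epithelium in humans, differed between its loci. C0J50_18349 had 14.2 FPKM in liver, 12.2 FPKM in the library labelled brain, 8.57 FPKM in pituitary and 7.19 FPKM in pancreas, and was at or above 1 FPKM in 11 libraries. C0J50_16566 had 7.41 FPKM in the library labelled gill, 2.06 FPKM in pituitary and 1.10 FPKM in testis, and less than 0.09 FPKM in every other library. The first was thus the most widespread non-clustered protocadherin, and the second was detected in 3. Protocadherin-12, vascular endothelial cadherin-2 in mammals, was highest in spleen, at 5.28 FPKM, followed by the library labelled gill at 3.06 FPKM, testis at 2.67 FPKM and heart at 2.35 FPKM.

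Clustered protocadherins, which in mammals give single neurons their own surface code, were all detected, 13 of 13, against 85.2% of all genes, and 12 of 13 were highest in the library labelled gill, against 17% of all detected genes. They were also the class of the shortest models, with a median of 1017 coding bases, and 6 of 13 had a single exon. The 4 loci named protocadherin 2 gamma 29 have 759 to 1017 coding bases, each on a scaffold with no other member. Protocadherin alpha-3-like (723 bases) and protocadherin 1 gamma 3 (573 bases) also lie alone. Whether such loci are pieces of fewer genes or share reads was not tested, so the 13 may not be separate genes. Protocadherin 1 gamma 31 stood at 33.3 FPKM in the library labelled gill and 6.95 FPKM in pituitary. Protocadherin alpha-3-like stood at 12.8 FPKM in the library labelled gill and 1.55 FPKM in pituitary, and protocadherin beta-15-like 6.73 and 0.0811 FPKM in the same libraries. The last 2 were tissue-enriched. Alpha-C2-like followed, with 3.93 FPKM in the library labelled gill and 1.53 FPKM in pituitary, and the 8 remaining loci highest there were between 1.11 and 2.54 FPKM.

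The exception was protocadherin 1 gamma 32, with 20.1 FPKM in spleen, 15.97 FPKM in the library labelled gill, 14.1 FPKM in testis, 12.9 FPKM in pituitary and 12.7 FPKM in heart. It had 9.91 FPKM in the library labelled brain, 5.91 FPKM in head kidney and 4.88 FPKM in kidney, and less than 1 FPKM only in skin and both barbels. Rescaled to a common sum, it was highest in the one labelled gill. This locus was the most evenly expressed member of the family, with a tau of 0.451.

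Clustered names occur on 2 large scaffolds. On scaffold178168, 2 protocadherin beta-16-like loci, Fat 2-like and gamma 31 follow one another on the plus strand between 6720881 and 6814090, and all 4 were highest in the library labelled gill. On scaffold178113, beta-15-like, Fat 4, an unnamed locus with the cadherin repeat motif (C0J50_13768, 11.5 FPKM in the library labelled gill), beta-16-like and gamma 32 lie in that order on the plus strand. The scaffolds are thus alike in holding a locus with a Fat name between beta and gamma names. Fat 2-like (C0J50_16579) has 7 coding exons and Fat 4 (C0J50_13767) has 14, against a median of 20 over the 11 Fat and Dachsous loci. Whether these models are Fat genes or hold parts of clustered protocadherins was not tested.

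Fat cadherins, giant proteins of cell polarity and growth control, held 2 of the enriched loci. Protocadherin Fat 2 (C0J50_10005, expressed in cerebellar neurons and epidermis in mammals) had 85.6 FPKM in the library labelled gill. It had 9.69 FPKM in skin, 9.16 FPKM in the library labelled brain, 6.79 FPKM in maxillary barbel, 6.61 FPKM in mandibular barbel and 4.91 FPKM in testis. In the other 9 libraries it was at most 0.0931 FPKM, with 0.0207 FPKM in pituitary. Fat 2 was thus present in the library with nerve markers, in 4 libraries with surface epithelium and in testis, and near 0 elsewhere.

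Protocadherin Fat 1 had 41.4 FPKM in the library labelled gill, 6.76 FPKM in testis, 4.52 FPKM in heart and 3.39 FPKM in pituitary. The locus named Fat 4 beside clustered protocadherins (C0J50_13767, 11091 coding bases) stood at 8.54 FPKM in the library labelled gill and 1.20 FPKM in pituitary. The longer Fat 4 locus (C0J50_02670, 15594 coding bases) was not detected, with at most 0.786 FPKM, in testis. Fat 4-like (C0J50_15935) was not detected either, with at most 0.846 FPKM, in the library labelled gill. Fat 3 was nearly level, with 3.29 FPKM in the library labelled gill and 2.53 FPKM in pituitary. Protocadherin-16, or Dachsous-1, the binding partner of Fat 4 in mammals, was highest in heart for the detected locus (C0J50_08297), at 3.35 FPKM, with 1.89 FPKM in spleen and 0.719 FPKM in the library labelled gill. Of the 11 loci of this kind, 6 were detected, against 85.2% of all genes, and 5 did not reach 1 FPKM in any library.

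CELSR receptors, the flamingo proteins of planar polarity, were low. CELSR 1 at C0J50_23546 was highest in testis, at 5.06 FPKM, with 0.965 FPKM in pituitary as the next value. CELSR 1 at C0J50_23059 was highest in skin, at 2.11 FPKM, with 1.79 FPKM in mandibular barbel and 1.46 FPKM in maxillary barbel, and below 1 FPKM elsewhere. No library held both loci of this name at 1 FPKM, but in pituitary they were just below it, at 0.965 and 0.995 FPKM. The lack of a common library thus rested on the minimum used. CELSR 2 and CELSR 3 reached 1.12 and 1.48 FPKM in the library labelled gill and 0.928 and 0.944 FPKM in pituitary.

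Tip link cadherins were found mainly in pituitary. Protocadherin-related 15a was tissue-enriched there, with 7.86 FPKM, against 0.491 FPKM in testis as the next value. The other protocadherin-15 locus had 3.49 FPKM in pituitary and 1.14 FPKM in testis. Cadherin-23, the other strand of the tip link, did not share this: it had 1.47 FPKM in spleen, 0.949 FPKM in pituitary and 0.812 FPKM in ovary. Cadherin-related family member 1-like, a photoreceptor cadherin in mammals, was detected only in pituitary, at 1.46 FPKM, and the second family member 1 locus was listed at 0 in all 15 libraries. Cadherin-related family member 5-like, whose mammalian relative sits in the brush border of the gut, stood at 5.91 FPKM in the library labelled gill and 4.07 FPKM in spleen.

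The 2 neural-cadherin loci, long models with 33 coding exons each, were low, with at most 1.16 FPKM in heart for C0J50_02141 and 1.13 FPKM in spleen for C0J50_14713. Cadherin-like and PC-esterase domain-containing protein 1, whose name holds the word although it lacks the annotated repeat motif, reached 0.491 FPKM in heart.

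Same-named loci were compared to see whether copies share a library. There were 20 names with exactly 2 loci, and in 16 both were detected. In 7 of the 16 pairs both loci had the same highest library, and in 9 they had different ones, cadherin-2, cadherin-6 and protocadherin-1 among them. Protocadherin-18 was another such pair, with 7.58 FPKM in the library labelled gill for C0J50_07899 and 5.51 FPKM in pituitary for the locus named 18b. Protocadherin-7 was among the 9, but with libraries rescaled to a common sum both of its loci were highest in the library labelled gill. Protocadherin-9 was among the 7, but C0J50_09194 has 525 coding bases and lies on the scaffold of the other locus. Whether these are pieces of fewer genes was not tested. Pairs were not counted over other same-named genes, so these counts are not read as a trait of the family. Duplicated neighbourhoods were also seen in cadherin-18, cadherin-12 and cadherin-10, which lie in this order on scaffold178185 and again on scaffold178287. On the first scaffold all 3 were highest in the library labelled gill, at 1.68, 1.32 and 6.48 FPKM. On the second they were highest in testis, heart and pituitary, at 1.14, 0.546 and 1.25 FPKM.

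The library labelled gill and pituitary, the 2 libraries in which most members were highest, were compared directly. At 5 FPKM or more in either, 36 members could be compared. By a difference of at least 2 on the log2(FPKM + 1) scale, which is 4-fold, 15 members were higher in the library labelled gill, against 15.8% of all genes compared, and 6 were higher in pituitary, against 5.39%. The count higher in the library labelled gill was 26 with FPKM rescaled to a common sum and 8 with a minimum of 10 FPKM, where 2 were higher in pituitary. The median difference, library labelled gill minus pituitary, was 1.39 over members and 0.47 over all genes compared. The largest differences were those of Fat 2 (6.41), protocadherin-10 (3.63), cadherin-10-like (3.41), Fat 1 (3.27) and beta-15-like (2.84). Toward pituitary they were those of E-cadherin (-3.93), cadherin-6 (-3.60), protocadherin-8 (-2.92), protocadherin-20 (-2.86) and protocadherin-related 15a (-2.59).

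**Figure D5:**
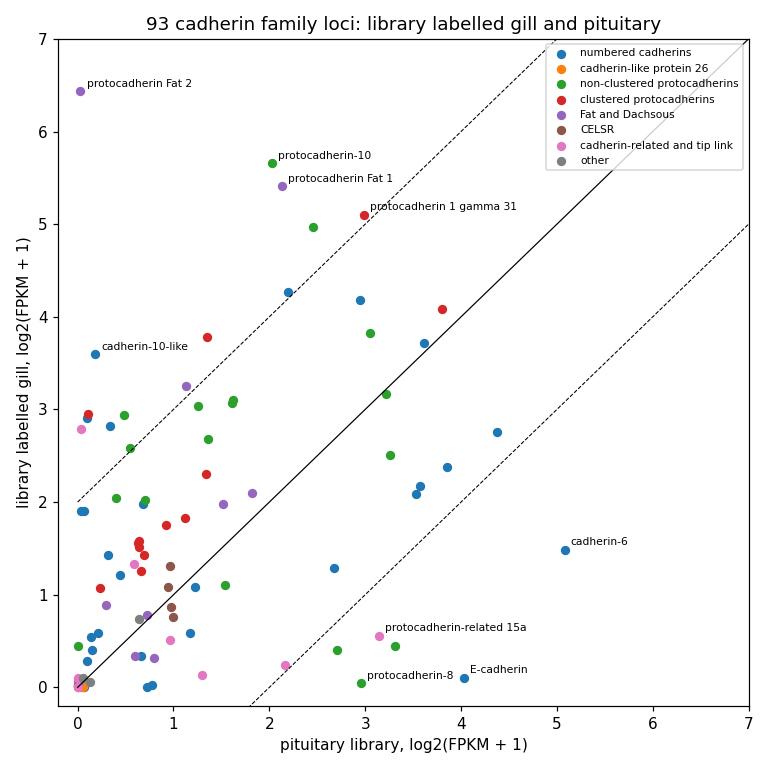
Each of the 93 members by log2(FPKM + 1) in the library labelled gill (vertical axis) and in pituitary (horizontal axis), coloured by class; the solid line marks equal values and the dashed lines a 4-fold difference. More members lie above the upper dashed line than below the lower one, with Fat 2 and protocadherin-10 farthest up and E-cadherin and cadherin-6 (C0J50_24227) far to the lower right.

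Kidney and head kidney differed in 2 of 4 members compared, both higher in kidney, against 1.44% of all genes, and 0 were higher in head kidney, against 0.11%. These were cadherin-17, with 47.8 FPKM in kidney and 0.0071 FPKM in head kidney, and E-cadherin, with 12.3 FPKM in kidney and 0.150 FPKM in head kidney. Cadherin-5 (9.05 and 13.5 FPKM) and protocadherin 1 gamma 32 (4.88 and 5.91 FPKM) were within 4-fold. E-cadherin, cadherin-5 and protocadherin 1 gamma 32 were each detected in 12 libraries, so breadth did not divide the loci that differed from those that did not. The 2 loci that differed reached the 5 FPKM minimum in kidney only. With 4 loci compared, nothing is read about kinds of cadherin.

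Heart and muscle differed in all 3 members compared, each higher in heart, against 26.6% of all genes, and 0 were higher in muscle, against 4.96%. With a minimum of 1 FPKM 5 members were higher in heart, and with FPKM rescaled to a common sum 9 were. Cadherin-2 (C0J50_13694) had 92.0 FPKM in heart and 0.0002 FPKM in muscle. Cadherin-5 had 80.5 FPKM in heart and 6.96 FPKM in muscle, and protocadherin 1 gamma 32 had 12.7 FPKM in heart and 1.43 FPKM in muscle. The background is high in this pair, and endothelial markers, which summed to 144 FPKM in heart and 9.70 FPKM in muscle, moved with cadherin-5; their part was not tested.

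Testis and ovary differed in 6 of 10 members compared, all higher in testis, against 18.2% of all genes, and 0 were higher in ovary, against 11.8%. The 6 were cadherin-2 (C0J50_21246; 10.1 FPKM in testis and 0.611 FPKM in ovary), cadherin-5 (10.3 and 0.655 FPKM), cadherin-6 (C0J50_24227; 11.3 and 1.05 FPKM), Fat 1 (6.76 and 0.310 FPKM), CELSR 1 (C0J50_23546; 5.06 and 0.0663 FPKM) and protocadherin-7 (5.05 and 0.0688 FPKM). E-cadherin was within 4-fold, at 84.4 FPKM in testis and 117 FPKM in ovary. Endothelial markers summed to 13.7 FPKM in testis and 2.53 FPKM in ovary, and their part in the cadherin-5 value was not tested. The count higher in testis was 3 with FPKM rescaled by median ratios and 3 with a minimum of 10 FPKM. With a common sum, 10 were higher in testis and 1 in ovary.

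The library labelled brain and skin differed in 9 of 13 members compared, 7 higher in the library labelled brain, against 35.5% of all genes, and 2 higher in skin, against 4.65%. Among the 7 were protocadherin-20 (10.3 FPKM in the library labelled brain, listed at 0 in skin), protocadherin 1 gamma 32 (9.91 and 0.308 FPKM), cadherin-5 (22.4 and 2.61 FPKM) and 2 cadherin-11 loci (5.74 and 0.313 FPKM, 6.69 and 0.562 FPKM). The 2 higher in skin were the cadherin-like protein 26 loci C0J50_00779 and C0J50_00781. E-cadherin, cadherin-1 and Fat 2 were within 4-fold. A minimum of 10 FPKM gave 3 above skin and 0 below it in the library labelled brain. A common sum gave 4 that were higher in skin. After rescaling by median ratios 2 members were 4-fold higher in the library labelled brain, so this count depended on the scale. Between maxillary and mandibular barbel, 0 of 4 members compared differed by 4-fold, against 0.564% and 0.382% of all genes.

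Genes that work with cadherins were read from lists of names. Of 49 names, 46 matched 78 loci. In all, 73 of the 78 were detected, against 85.2% of all genes, the share to set beside each list below. Of the 78, 3 were tissue-enriched, against 9.38% of all genes. The 11 catenin loci were all detected, with a median of 7 libraries at 1 FPKM. Beta-catenin (C0J50_22776) had 113 FPKM in heart, 77.8 FPKM in the library labelled gill, 40.2 FPKM in the library labelled brain and 5.65 FPKM in muscle. Alpha-1 catenin had 47.7 FPKM in heart and 27.7 FPKM in the library labelled brain. Junction plakoglobin differed between loci: plakoglobin a stood at 86.7 FPKM in the library labelled brain and 34.1 FPKM in maxillary barbel, while C0J50_06155 stood at 15.2 FPKM in the library labelled gill and 1.18 FPKM in pituitary and was, with C0J50_09842, tissue-enriched there. Neuronal alpha-2 catenin stood at 7.97 FPKM in the library labelled gill and 5.09 FPKM in pituitary.

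Of 23 adherens junction loci, 22 were detected and 1 was tissue-enriched, a nectin-3-like locus (C0J50_05116) with 93.3 FPKM in the library labelled gill and 5.73 FPKM in ovary. All 12 planar polarity loci were detected, with a median of 11 libraries at 1 FPKM and 4 of the 12 highest in testis, against 10% of all detected genes. Of 5 loci of proteases that cut cadherins (the sheddase ADAM10 and the presenilins), 4 were detected, with a median of 13 libraries over the list. The partner lists other than the tip link list thus had medians above the 2 libraries of a detected cadherin. The medians of the lists took in undetected loci, while that of the cadherins was over detected members only. The median over all detected genes was 10 libraries, and the catenins (7) and the repressors of E-cadherin (7.5) were below it.

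The tip link and brush border list was narrow, with a median of 1 library at 1 FPKM over its 17 loci. Of these, 14 were detected, against 85.2% of all genes. Among the 14, 9 were highest in pituitary, against 3.98% of all detected genes. There harmonin, a scaffold protein at tip link anchors, had 4.36 FPKM, TMIE, a subunit of the hair cell channel, had 9.11 FPKM, TMC2, a pore protein of that channel, had 3.09 FPKM (C0J50_00360), and a myosin VIIa-like locus had 4.01 FPKM. In these loci the other libraries had at most 1.04 FPKM. These loci were thus high in the library in which both protocadherin-15 loci were highest. Other detected loci of the list were highest elsewhere, 2 of them in the library labelled gill, with whirlin (C0J50_04736) at 4.40 FPKM. Another myosin VIIa locus (C0J50_02272) had 7.11 FPKM in spleen and 0.583 FPKM in pituitary. TMC1 was highest in mandibular barbel, at 2.65 FPKM, and a USH1G locus (C0J50_07776) in skin, at 1.25 FPKM. What the RNAs of this list came from was not tested.

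Repressors of E-cadherin, known from epithelial cells that become motile, were detected at all 10 loci, none of them tissue-enriched. ZEB2 (C0J50_04182) stood at 21.0 FPKM in the library labelled gill and at most 0.924 FPKM in the library labelled brain, both barbels and skin. ZEB1 (C0J50_11241) stood at 12.3 FPKM in the library labelled gill and at most 1.91 FPKM in those 4. Another ZEB2 locus (C0J50_03172) had 19.8 FPKM in head kidney and 16.5 FPKM in kidney. Snail 1b had 15.03 FPKM in spleen. Twist 1 (C0J50_19204) and twist 2 were highest in the library labelled brain, at 7.53 and 4.03 FPKM, and the other twist 1 locus in ovary, at 3.56 FPKM. E-cadherin stood at 0.0726 FPKM in the library labelled gill, 0.150 FPKM in head kidney, 12.3 FPKM in kidney and 15.6 FPKM in spleen. It stood at 117 FPKM in ovary and 263 FPKM in the library labelled brain. The libraries in which these named loci were highest thus had low, intermediate and high E-cadherin. The part of these factors in the level of E-cadherin was not tested.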

How the data were processed

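The authors deposited FPKM per gene for 15 libraries. StringTie 1.3.4d was used, per the submitters' processing notes. The aligner, the build and the depth were not given in the sources used here. A deposited annotation table gave protein names, motifs, scaffold positions (counted from 1), exons and coding lengths. Of the 25089 genes, 25064 were found in it.

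Each tissue was a group of 1 library, so no test was run. FPKM was used as deposited with a pseudocount of 1. Detection needed 1 FPKM. Calls of enrichment and of pairs needed 5 FPKM in the highest library and a 5-fold or 4-fold difference. Classes came from protein names, and partner and marker loci were matched by name. Each marker name was read at 1 locus, while a partner name could match several. The name patterns for some markers, kdr, Rhcg, foxi3 and GRIN1, were corrected after their first matches were seen. Named loci were the 2 given as examples, the enriched members, the highest of each class, the largest differences of each pair and the members of runs on a scaffold; cadherin-15, cadherin-16, the PC-esterase locus, protocadherin-12, the loci of same-named pairs and the less abundant paralogs were added after their values were seen. The members and lists were chosen with earlier results of these data known. Python 3.11.15, pandas 2.3.3 and numpy 2.4.6 were used. The alternatives were other pseudocounts, minimums and folds, tau, rescaling by median ratios over 5659 genes or to a common sum, and libraries left out.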

Additional observations from a re-analysis of the deposited data

How the results depend on the processing

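No paired analysis was possible because each tissue has 1 library, so the groups share fewer than 2 replicate numbers. Every setting below was planned except where said. The factors of the median ratios lay between 0.517 (pancreas) and 2.06 (ovary). Of 144 recomputed counts, 114 stayed within 1.5 times the value reported and 30 moved. None of the tissue-enriched members and none of those called between a pair of libraries changed sign. The highest library did change for E-cadherin and protocadherin-20 with median ratios, and for protocadherin-8-like, protocadherin 1 gamma 32, protocadherin-7 and cadherin-7 with a common sum. With 5 FPKM as the detection minimum, 44 members were detected, 20 were highest in the library labelled gill and 1 in testis. Rescaling by median ratios also left 1 highest in testis, and the highest library was kept by 78 of 80 members, or by 76 with a common sum. Without the libraries labelled brain and gill, a setting added after seeing the data for this count, pituitary was highest for 27 and testis for 5.

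Tissue-enriched members numbered 8 with a minimum of 10 FPKM, 2 with a 10-fold rule (2.15%, against 4.73% of all genes) and 5 with the libraries labelled brain and gill left out (5.38%, against 7.78%). In those 2 settings the share of members was below that of all genes. In the library labelled gill there were 14 with a common sum and 2 with the 10-fold rule, and in pituitary 0 with a minimum of 10 FPKM and 0 with the 10-fold rule. In the library labelled brain, where the count was 0, there was 1 with a pseudocount of 0.1, 2 with a common sum and 1 by tau.

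With a minimum of 10 FPKM, 8 members were higher in the library labelled gill and 2 in pituitary, 3 were higher in testis than in ovary, and of brain (label) and skin 3 were higher in the first and 0 in the second. With a common sum, 26 were above pituitary in the library labelled gill, 9 were higher in heart than in muscle, 10 in testis and 1 in ovary, and 4 in skin than in brain (label). Median ratios gave 3 higher in testis than in ovary and 2 in brain (label) than in skin. A pseudocount of 0.1 gave 1 higher in ovary, and a minimum of 1 FPKM gave 5 higher in heart than in muscle. The causes were not tested. Depth is unknown, values near 0 are coarser in muscle, skin and barbels, and short fragments of genes may share reads.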

Other observations

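Loci outside the name rule also carried the cadherin repeat motif, 13 in all. Among them were desmosomal cadherins, which hold epithelial and heart muscle cells together at desmosomes. Desmoglein-2 (C0J50_13695) had 28.4 FPKM in heart, 21.7 FPKM in skin, 19.9 FPKM in the library labelled brain and 18.1 FPKM in testis, and 0.266 and 0.404 FPKM in maxillary and mandibular barbel. Desmocollin-1 had 38.4 FPKM in skin, 37.0 FPKM in maxillary barbel, 35.4 FPKM in mandibular barbel, 35.5 FPKM in testis and 33.7 FPKM in the library labelled brain. The barbels, which had 129 and 112 FPKM of E-cadherin, thus had desmocollin-1 at the level of skin but desmoglein-2 below 1 FPKM.

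Calsyntenin-3, a cadherin-repeat protein of synapses, had 54.5 FPKM in the library labelled gill, 7.12 FPKM in pituitary and less than 0.4 FPKM elsewhere. The receptor tyrosine kinase Ret, which has cadherin repeats outside the cell, had 11.5 FPKM in liver and 7.72 FPKM in pituitary. Loci with this motif were chosen after the name rule had been applied, and no count over them was compared with other genes.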
